A study of Homo sapiens with 3 samples.

Results

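The EGFR family of receptors and its ligands was examined as 10 genes, 4 receptors (EGFR, ERBB2, ERBB3, ERBB4) and 6 ligands (AREG, EREG, HBEGF, TGFA, BTC, NRG1), in maps of Fra-1 and Fra-2 binding by chromatin immunoprecipitation and sequencing. The cells were MDA-MB-231, an established line of human breast cancer, whose source tumour the labels class as triple-negative and basal B. A peak was assigned to a gene when its centre lay in the gene body or within 100 kb of a transcription start site (TSS) of that gene in GENCODE on GRCh37, a territory called its reach. By this rule the family held 29 of the 9998 peaks of the Fra-1 list (0.29%) and 38 of the 13003 of the Fra-2 list (0.292%), at 42 separate sites. The assignment rule used only positions and the annotation. Each antibody gave 1 deposited list of peak positions without heights, although the labels mention 2 independent replicates, so no value has a spread between replicates and no test between the antibodies was possible. The labels name no treatment, and the culture medium for both antibodies held 10% serum, at 37 °C. The input DNA sample was not analysed here, and the copy number of these loci in this line was not measured.

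EGFR, ERBB2, ERBB3 and ERBB4 are receptor tyrosine kinases that pair with each other when a ligand binds. ERBB2 has no known ligand of its own, and ERBB3 has little kinase activity and signals through its partners. Amphiregulin (AREG), epiregulin (EREG), heparin-binding EGF (HBEGF), transforming growth factor alpha (TGFA) and betacellulin (BTC) are made as membrane proteins, are released by shedding proteases and bind EGFR, while neuregulin 1 (NRG1) binds ERBB3 and ERBB4. Fra-1 (FOSL1) and Fra-2 (FOSL2) are Fos proteins that bind DNA with a Jun partner as AP-1, and growth factor signalling through the MAP kinases is known to raise AP-1 activity. The AP-1 element searched for was TGAGTCA on both strands, which reads TGACTCA on the other strand.

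Sequences of GRCh37, plus strand, 5′ to 3′, are given for the sites on which the description turns, with the AP-1 element in capitals. The 7 copies of the element inside EGFR peaks are shown with 12 bases to each side, because EGFR held more peaks than any other member in the Fra-1 list. All 7 lay in a peak of both lists.
EGFR upstream, chr7:55053197-55053227: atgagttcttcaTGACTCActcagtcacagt
EGFR intron 1, first element, chr7:55132992-55133022: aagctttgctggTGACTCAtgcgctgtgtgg
EGFR intron 1, neighbouring element, chr7:55133542-55133572: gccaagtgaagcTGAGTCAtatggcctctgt
EGFR intron 1, next downstream, chr7:55141889-55141919: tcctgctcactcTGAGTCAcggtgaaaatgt
EGFR intron 1, distal element, chr7:55200755-55200785: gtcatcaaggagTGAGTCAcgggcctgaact
EGFR exon 9 and its flank, chr7:55224342-55224372: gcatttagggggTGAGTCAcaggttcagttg
EGFR intron 20, chr7:55254110-55254140: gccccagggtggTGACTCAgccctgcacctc

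For the ERBB3 and ERBB4 genes, elements in peaks of the Fra-2 list alone are shown, because these genes had no site common to both lists. They are shown with 12 bases to each side.
ERBB3 promoter, Fra-2 only, chr12:56473829-56473859: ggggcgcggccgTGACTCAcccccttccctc
ERBB4 intron 3, Fra-2 only, chr2:212732908-212732938: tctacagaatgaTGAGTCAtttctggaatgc

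Whole Fra-1 peaks of pairs, meaning a Fra-1 and a Fra-2 peak that overlapped by at least 1 bp, are shown for 4 genes. They are the widest pair of EGFR, EREG and HBEGF and the pair nearest to a TSS of HBEGF and BTC. Each runs from the deposited start to the base before the deposited end, and EGFR's is the central 300 bases of 400. The HBEGF downstream peak is shown because it has no copy of the element.
EGFR widest pair, intron 1, chr7:55200601-55200900: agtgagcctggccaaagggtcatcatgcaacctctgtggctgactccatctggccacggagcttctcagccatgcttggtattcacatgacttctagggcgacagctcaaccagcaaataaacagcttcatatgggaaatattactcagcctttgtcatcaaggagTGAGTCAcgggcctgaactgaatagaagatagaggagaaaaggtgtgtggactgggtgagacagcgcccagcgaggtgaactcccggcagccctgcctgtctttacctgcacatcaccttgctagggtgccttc
EREG widest pair, intron 1, chr4:75240351-75240600: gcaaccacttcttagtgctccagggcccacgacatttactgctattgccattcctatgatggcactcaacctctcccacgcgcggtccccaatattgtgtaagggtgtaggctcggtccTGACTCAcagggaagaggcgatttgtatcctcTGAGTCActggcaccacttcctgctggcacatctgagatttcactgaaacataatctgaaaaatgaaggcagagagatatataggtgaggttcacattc
HBEGF pair in intron 2, chr5:139724351-139724450: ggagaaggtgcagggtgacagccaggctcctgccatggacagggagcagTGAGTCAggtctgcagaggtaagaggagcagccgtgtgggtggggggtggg
HBEGF widest pair, downstream, chr5:139631151-139631400: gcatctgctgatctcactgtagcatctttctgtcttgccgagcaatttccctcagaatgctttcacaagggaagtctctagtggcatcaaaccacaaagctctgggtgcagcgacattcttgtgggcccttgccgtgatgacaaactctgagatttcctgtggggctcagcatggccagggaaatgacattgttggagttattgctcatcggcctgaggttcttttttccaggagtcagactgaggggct
BTC pair in intron 2, chr4:75694201-75694300: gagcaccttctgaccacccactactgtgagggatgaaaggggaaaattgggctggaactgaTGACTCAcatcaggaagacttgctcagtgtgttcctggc

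Most members had peaks of both antibodies. Of the 10 genes, 8 had a Fra-1 peak in reach and 9 had one of Fra-2, against 45.3% and 58.6% of 20098 protein-coding genes. Peaks of both lists were in reach of 8 members and of 42.7% of protein-coding genes. AREG and EREG have the same peaks in reach and enter each of these counts separately. Taken as 1 locus, they leave 7 with a Fra-1 peak and 8 with a Fra-2 peak. Reach differs with gene length, and it was longer for the members (median 232 kb) than for all protein-coding genes (211 kb). Among the 6242 genes with a reach at least as long as the member median, the shares were 53.5% for Fra-1 and 64.8% for Fra-2. The median member had 2 Fra-1 and 3 Fra-2 peaks, and the median protein-coding gene 0 and 1.

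**Figure D1:**
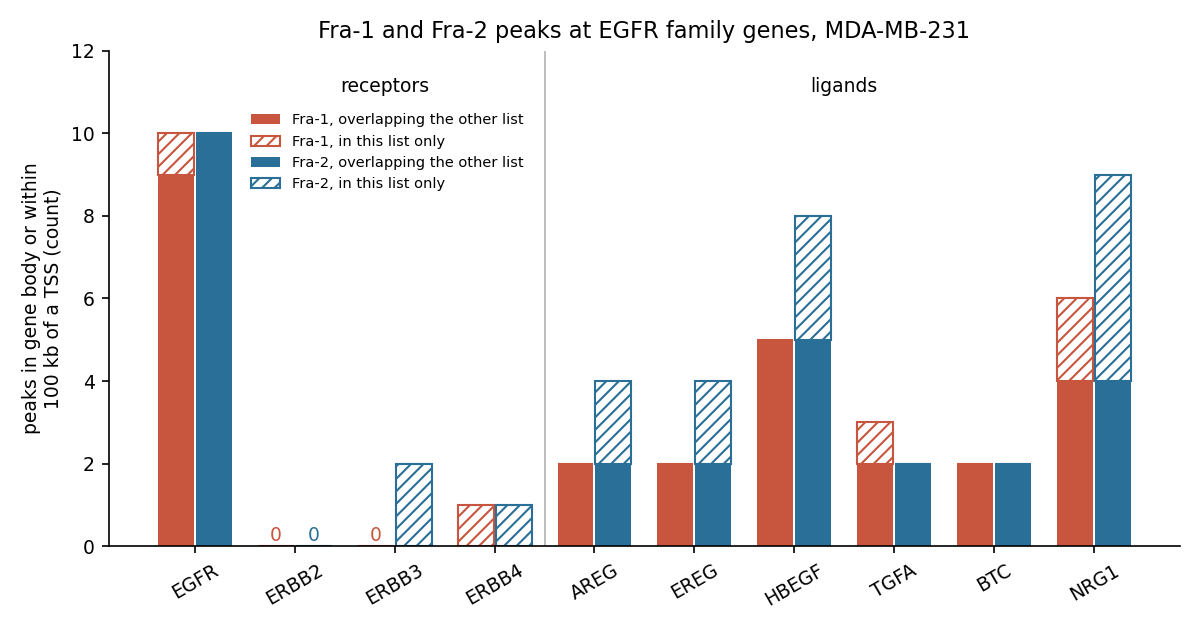
Number of Fra-1 (red) and Fra-2 (blue) peaks in reach of each gene. Filled parts overlap a peak of the other list and hatched parts do not. EGFR has 10 of each, ERBB2 has 0 of each, and the 6 ligands have 2 to 6 Fra-1 and 2 to 9 Fra-2 peaks (AREG and EREG share theirs).

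The receptors differed widely among themselves. EGFR, the receptor of most ligands in the set (ENSG00000146648, chr7:55086710-55279321, plus strand), had 10 peaks in each list. As many Fra-1 peaks were in reach of 0.204% of protein-coding genes, and as many Fra-2 peaks of 0.567%. Over its reach of 382 kb this was 26.2 peaks per Mb in each list, with a 95% exact Poisson interval of 12.6 to 48.2. All intervals given here cover only counting error and take each peak as independent of its neighbours. The peaks of both lists fell on 10 sites, of which 9 were common to both. Some EGFR peaks lay close together, and with neighbours within 500 bp merged EGFR had 9 Fra-1 and 8 Fra-2 peaks.

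EGFR's peaks lay within and upstream of the gene and not at its promoter. The pairs farthest 5′ lay upstream, centred 33.4 kb and 22.9 kb from the TSS of the canonical transcript in the Fra-1 list. The first intron, which is the long intron of this gene, held 6 Fra-1 and 5 Fra-2 peaks. Intron 20 held a pair with Fra-1 from 55254101 to 55254201 and Fra-2 from 55254051 to 55254201. No peak of either list lay closer than 6.35 kb to any annotated TSS of EGFR. Most protein-coding genes likewise lacked a peak near a start, as 2.74% had a Fra-1 and 5.09% a Fra-2 peak within 1 kb of a TSS. Within 10 kb of a TSS, EGFR had 2 Fra-1 and 3 Fra-2 peaks. These lay near starts inside the gene, 137 to 167 kb from the canonical TSS. Some peak within 10 kb of a TSS was found for 5 members with Fra-1 and 6 with Fra-2, against 11.2% and 17.6% of protein-coding genes. The shares are not matched for the number of annotated TSS, which was 12 for EGFR and 32 for ERBB3 and for NRG1.

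Width varied within the gene. The widest pair of EGFR, from 55200551 to 55200951 in both lists, was 400 bp wide and sat in intron 1, 114 kb from the canonical TSS, with the element 19 bp from its centre. A neighbouring pair lay within 1 kb of it, with a width of 250 bp for Fra-1, 100 bp for Fra-2 and no copy of the element. Touching exon 9, a single Fra-1 peak from 55224001 to 55224401 covered 2 Fra-2 peaks, from 55224101 to 55224251 and from 55224301 to 55224401. The sole EGFR peak without a partner was a Fra-1 peak from 55119901 to 55120151 in intron 1. It was 250 bp wide and had no TGAGTCA within 100 bp of its centre.

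ERBB2, the receptor amplified in HER2-positive breast cancer, had no peak of either list (ENSG00000141736, chr17:37844167-37886679, plus strand). Its reach of 240 kb would allow up to 15.3 peaks per Mb by the exact Poisson interval, so the count of 0 bounds the density loosely. The nearest peaks were a pair 293 kb from its closest TSS, from 38177751 to 38177951 in the Fra-1 list, whose nearest TSS is that of MED24. Of all protein-coding genes, 38.8% likewise had no peak of either list in reach.

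ERBB3, whose signalling depends on its partners, had 0 Fra-1 and 2 Fra-2 peaks (ENSG00000065361, chr12:56470583-56497289, plus strand). A Fra-2 peak from 56473751 to 56473951 was centred 0.07 kb from the nearest ERBB3 TSS and held the element 7 bp from its centre. It was the only member peak within 1 kb of a member's own TSS, where 5.09% of protein-coding genes have a Fra-2 peak and 2.74% a Fra-1 peak. The other peak, from 56546151 to 56546251, lay 0.022 kb from a TSS of MYL6B and 52.6 kb from the nearest TSS of ERBB3. The nearest Fra-1 peak to an ERBB3 TSS was 234 kb away.

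ERBB4, a neuregulin receptor, had few peaks for its length (ENSG00000178568, chr2:212240442-213403565, minus strand). A single Fra-1 peak lay in intron 2 and a single Fra-2 peak from 212732851 to 212733001 in intron 3, so the lists had no common site there. In a reach of 1263 kb each list had 0.792 peaks per Mb (exact Poisson interval 0.02 to 4.41). The merged reach of all protein-coding genes had 3.53 per Mb for Fra-1, inside that interval, and 4.91 for Fra-2, above it. The ERBB4 interval does not overlap that of EGFR, the member with the highest Fra-1 density. This contrast was singled out after the values had been seen. Both ERBB4 peaks held the AP-1 element.

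**Figure D2:**
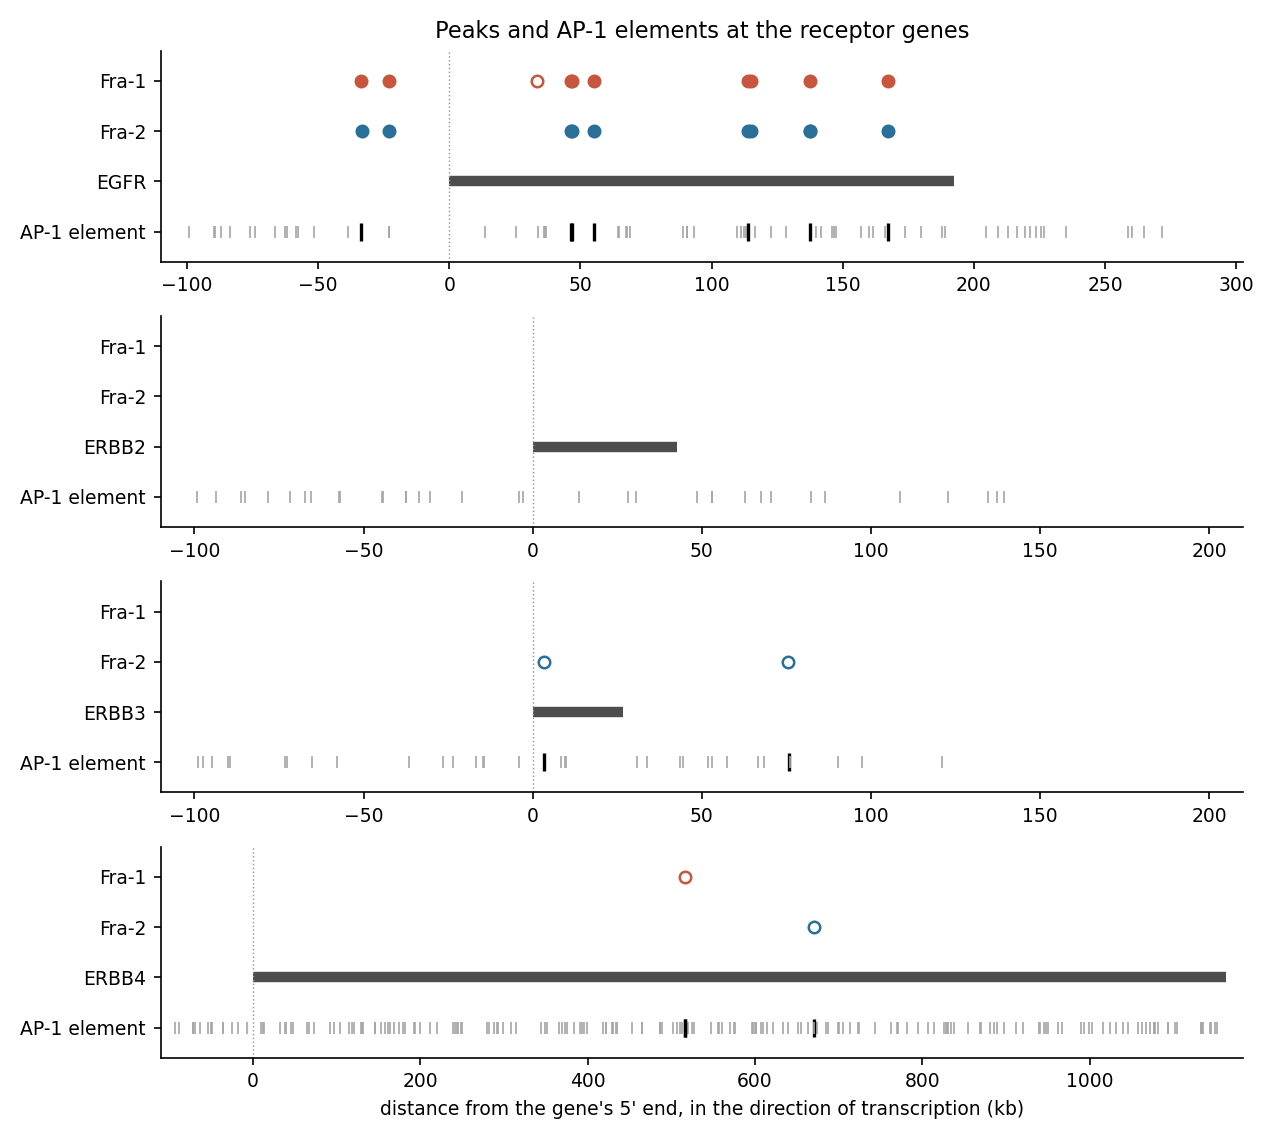
Positions of Fra-1 peaks (red), Fra-2 peaks (blue), gene body (grey bar) and AP-1 elements at the 4 receptor genes, by distance from the gene's 5′ end in kb. Filled circles overlap the other list, open circles do not, and black ticks are elements inside a peak. The EGFR peaks spread from 33.4 kb upstream to 167 kb downstream of the 5′ end, ERBB2 has none, and no site of ERBB3 or ERBB4 is common to both lists.

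All 6 ligand genes had peaks of both antibodies. EREG (ENSG00000124882, chr4:75230862-75254466) and AREG (ENSG00000109321, chr4:75310853-75320722), both on the plus strand, are neighbours and have the same 2 Fra-1 and 4 Fra-2 peaks in reach, so they are a single observation. The pairs lay in intron 1 of EREG, 9.61 and 10.1 kb downstream of the canonical TSS in the Fra-1 list. The nearer of them was 69.9 kb from a TSS of AREG. The wider, with Fra-1 from 75240351 to 75240601 and Fra-2 from 75240401 to 75240601, held 2 copies of the element. A Fra-2 peak between the genes, from 75260601 to 75260851, held the element. Another downstream of AREG, from 75339001 to 75339101, did not, and neither overlapped a Fra-1 peak. The pairs and the peak between the genes are also in reach of EPGN, which encodes the ligand epigen.

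HBEGF, a ligand that binds heparin (ENSG00000113070, chr5:139712428-139726188, minus strand), had 5 peaks of Fra-1 and 8 of Fra-2 in a reach of 211 kb. The densities were 23.6 per Mb for Fra-1 and 37.8 for Fra-2 (exact Poisson intervals 7.68 to 55.2 and 16.3 to 74.5), the highest Fra-2 density of the 10 genes. All 5 Fra-1 peaks overlapped a Fra-2 peak. The nearest pair to the start, starting at 139724351 and ending at 139724451 for Fra-1 but at 139724501 for Fra-2, lay in intron 2, 1.79 and 1.76 kb from the canonical TSS.

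The other HBEGF sites all lay downstream of the gene. Of the peaks, 3 in each list were nearest to a TSS of HBEGF among protein-coding genes, and the others were nearest to PFDN1. The widest pair, 83.4 kb from the nearest HBEGF TSS, and a Fra-2-only peak lay in introns of PFDN1 and CYSTM1. With a reach of the gene body or 10 kb from a TSS, HBEGF kept 1 peak in each list. At HBEGF all 3 Fra-2-only peaks held TGAGTCA, against 1 of 5 Fra-2 peaks that overlapped a Fra-1 peak, a contrast singled out after the values had been seen. Over all members it was 9 of 13 Fra-2-only peaks and 15 of 25 that overlapped. In the Fra-1 list it was 1 of 5 without a partner and 14 of 24 with one. The 4 pairs without it had widths of 200 to 250 bp in the Fra-1 list, and the pair from 139691751 to 139691951 held the looser form TGANTCA.

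TGFA, a ligand of EGFR (ENSG00000163235, chr2:70674416-70781325, minus strand), had 3 peaks of Fra-1 and 2 of Fra-2. A pair in intron 1, from 70752301 to 70752451 in the Fra-1 list, lacked the element. Another pair 42.3 kb upstream of the nearest TSS, from 70823551 to 70823701 in the Fra-1 list, held it. The third Fra-1 peak, from 70698451 to 70698551 in intron 2, had no partner and held TGANTCA but not TGAGTCA.

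BTC, which binds EGFR and ERBB4, had 2 pairs (ENSG00000174808, chr4:75669969-75719733, minus strand). One, with Fra-1 from 75694201 to 75694301 and Fra-2 from 75694151 to 75694351, lay in intron 2, 25.5 kb from the canonical TSS and 1.11 kb from a TSS inside the gene. The farther pair, 112 kb from the canonical TSS and downstream of the gene, began at 75608051 in both lists. All BTC peaks held the element.

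NRG1, the neuregulin gene (ENSG00000157168, chr8:31496738-32713184, plus strand), had 6 peaks of Fra-1 and 9 of Fra-2, but over a reach of 1316 kb. Its densities were 4.56 per Mb for Fra-1 and 6.84 for Fra-2 (exact Poisson intervals 1.67 to 9.92 and 3.13 to 13). Of the members with a Fra-1 peak, only ERBB4 had a lower Fra-1 density. All peaks lay in introns of the longer transcripts, upstream of the canonical TSS. The widest pair ran from 32189051 to 32189501 in the Fra-1 list, a width of 450 bp, with 400 bp for Fra-2. It was the widest of all member peaks in the Fra-1 list and had no TGAGTCA within 100 bp of its centre. Of the NRG1 peaks, 2 Fra-1 and 5 Fra-2 peaks had no partner.

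**Figure D3:**
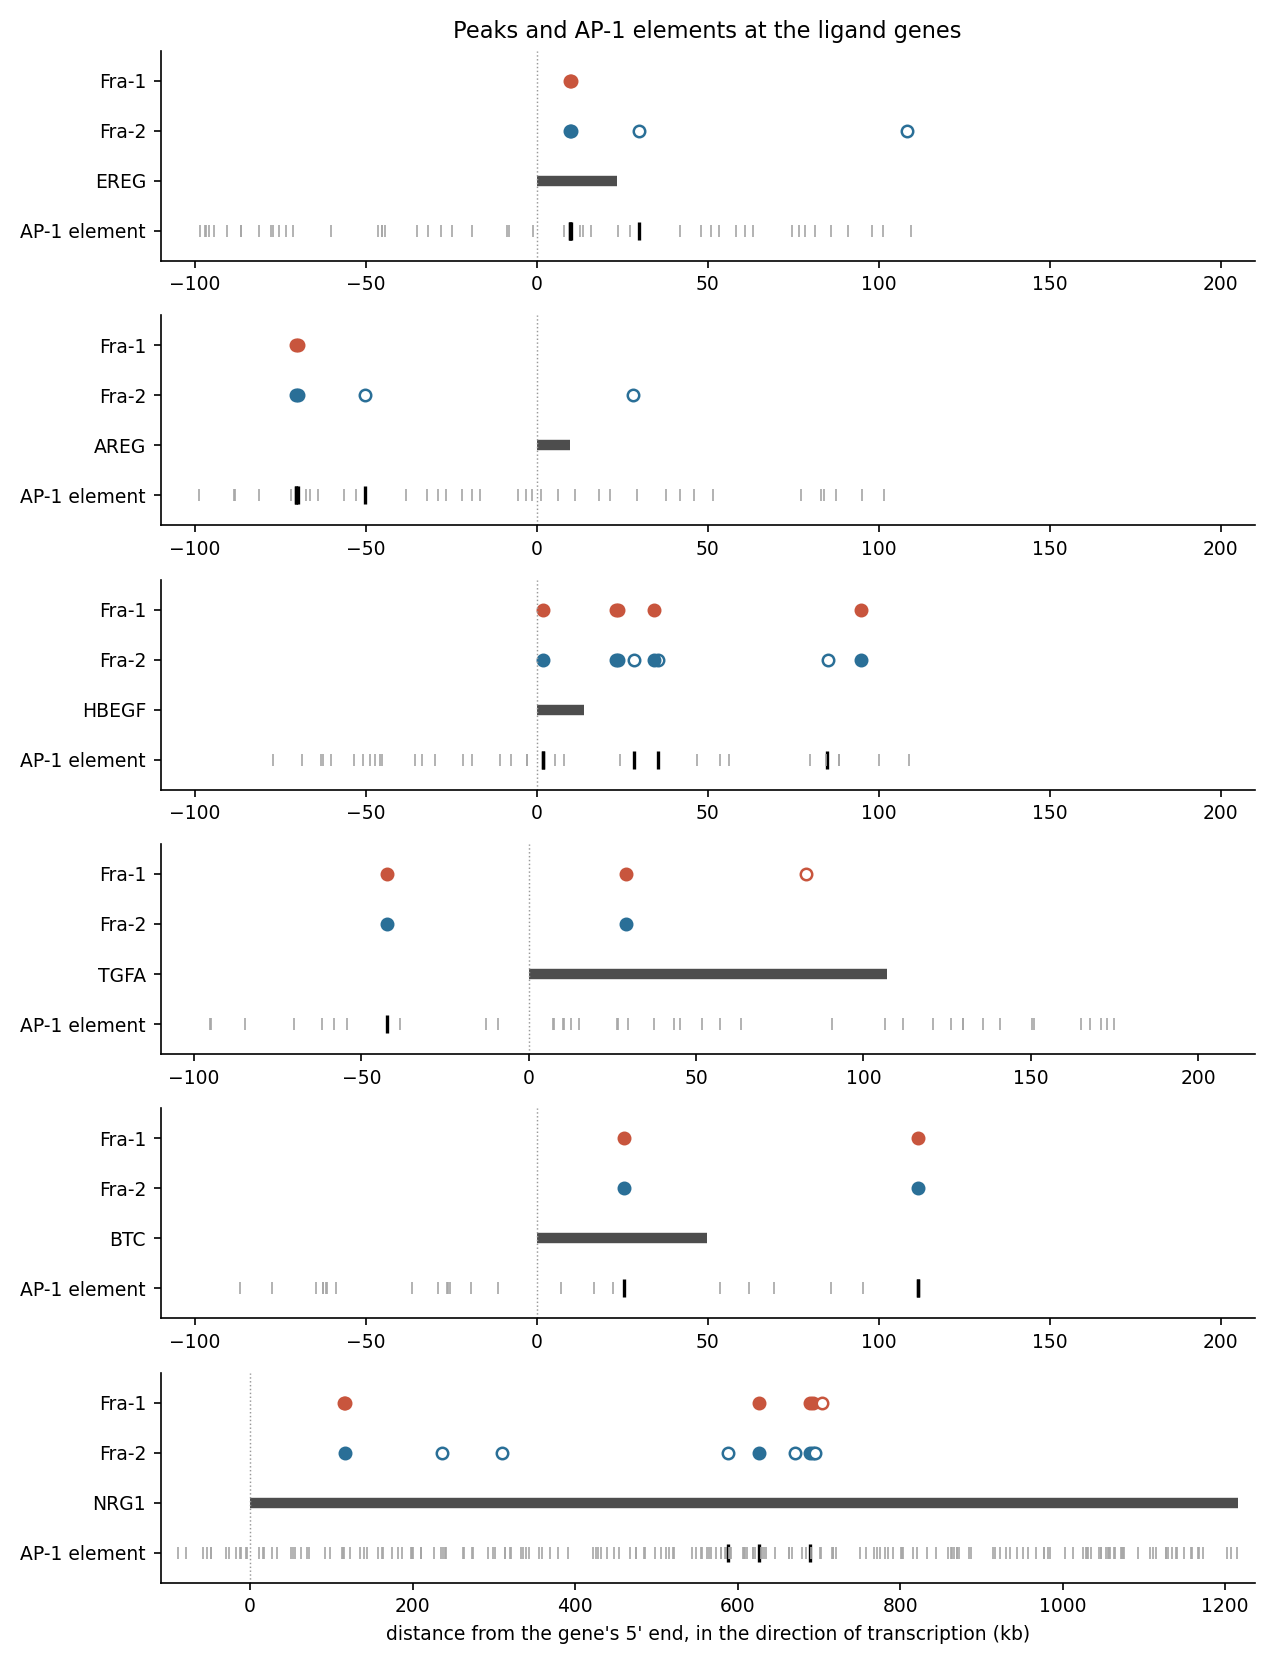
Positions of peaks, gene bodies and AP-1 elements at the 6 ligand genes, drawn as for the receptors, by distance from the gene's 5′ end in kb. EREG and AREG show the same peaks from different starts, the HBEGF peaks beyond intron 2 lie downstream of the gene, and the NRG1 peaks lie between 116 and 704 kb inside its annotated body.

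Counts were also placed among all protein-coding genes. At least as many Fra-1 peaks as HBEGF were found for 3.31% of genes and as many Fra-2 peaks for 1.77%. The corresponding shares were 1.77% and 1.07% for NRG1, and 11.8% and 34.4% for TGFA. For AREG and EREG they were 23.3% and 12.4%, and for BTC 23.3% and 34.4%. The lowest counts above 0 were those of ERBB4, reached by 45.3% and 58.6% of genes. These shares rank raw counts and are not adjusted for reach, which was 1316 kb for NRG1 against a median of 211 kb. The NRG1 densities of 4.56 and 6.84 per Mb had intervals that include those of the merged reach of all protein-coding genes (3.53 and 4.91).

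**Figure D4:**
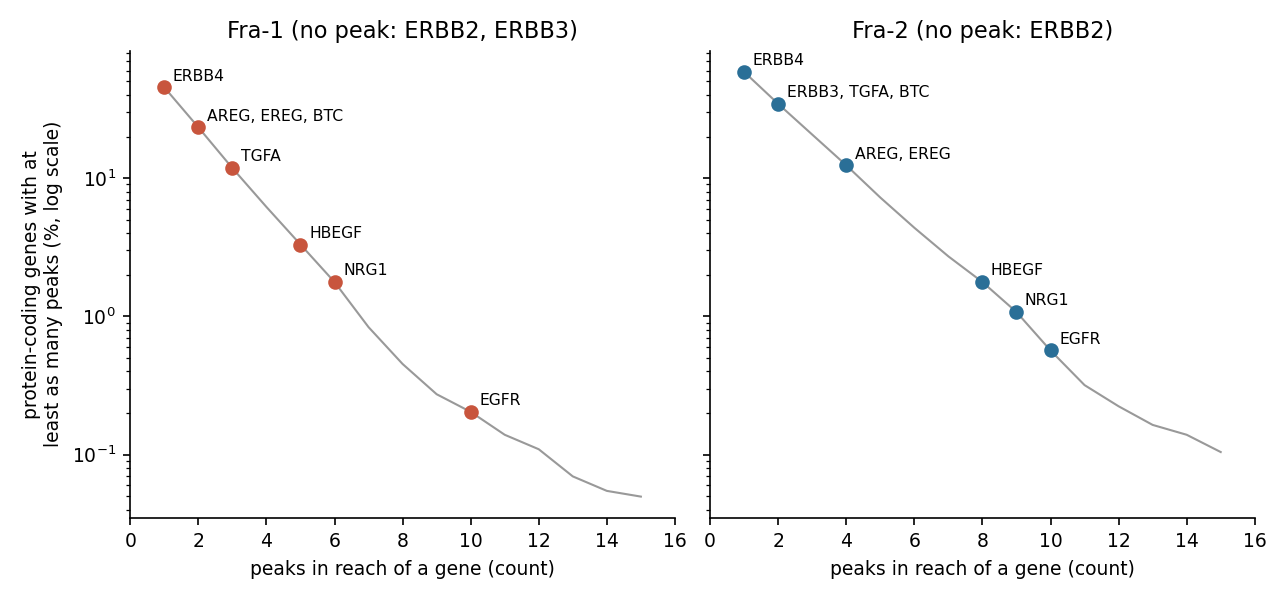
Share of protein-coding genes (%, log axis) with at least a given number of peaks in reach, for Fra-1 (left) and Fra-2 (right), with the members marked at their own counts. EGFR sits at 0.204% and 0.567%, and ERBB4 at 45.3% and 58.6%. Counts are not adjusted for the length of the reach.

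Over the merged reach of 4.43 Mb the family had 6.54 peaks per Mb for Fra-1 and 8.57 for Fra-2. The merged reach of all protein-coding genes had 3.53 and 4.91 per Mb, and chromosomes 1 to 22 and X had 3.23 and 4.22. Without EGFR the members had 4.69 per Mb for Fra-1 and 6.91 for Fra-2, and 19 Fra-1 peaks in place of 29.

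The lists coincided at the family's genes about as often as elsewhere. Of the member peaks, 24 of 29 in the Fra-1 list (82.8%, 95% exact Clopper-Pearson interval 64.2 to 94.2) overlapped a Fra-2 peak, and 25 of 38 in the other list (65.8%, 48.6 to 80.4) overlapped a Fra-1 peak. Over chromosomes 1 to 22 and X the shares were 80.3% and 61.3%, inside both intervals. The 25 pairs had centres 0 to 150 bp apart, with a median of 25 bp, and 9 had identical coordinates. The Fra-1 peak was wider in 8 pairs and the Fra-2 peak in 8.

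At the family's genes, peaks common to both lists had larger median widths than peaks of a single list. The 24 Fra-1 peaks with a partner had a median width of 200 bp and the 5 without a partner 100 bp. For Fra-2, the 25 peaks with a partner had a median of 200 bp and the 13 without 150 bp. The same medians held over all nuclear peaks outside chromosome Y. None of the member peaks lay in a repeat-like region, which took up 13.4% of all Fra-1 and 11.1% of all Fra-2 peaks over those chromosomes.

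Member peaks lay mostly inside genes, which the rule favours because it takes in whole gene bodies. In a gene body lay 22 of the 29 for Fra-1 (75.9%, exact interval 56.5 to 89.7) and 27 of 38 in the Fra-2 list (71.1%, 54.1 to 84.6), where all peaks gave 42.7% and 46.7%. Within 1 kb of the TSS of any protein-coding gene there were 0 of the 29 for Fra-1 (exact interval up to 11.9%) and 2 of the 38 for Fra-2 (5.26%), the ERBB3 and MYL6B ones. The shares over all peaks were 6.21% and 8.59%.

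Of the 29 Fra-1 peaks, 15 had the AP-1 element at most 100 bp from their centre (51.7%, exact interval 32.5 to 70.6). Of the 38 for Fra-2, 24 had it (63.2%, 46 to 78.2). Over all such peaks on chromosomes 1 to 22 and X the shares were 57.8% and 68.4%. Over those outside repeat-like regions, where all member peaks lay, they were 65.6% and 75.6%, inside both intervals. Windows of the same length 5 kb to each side of the member peaks held it in 1 of 58 cases beside Fra-1 and in 2 of 76 beside Fra-2 peaks. The intervals of the member peaks and of these windows did not overlap.

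**Figure D5:**
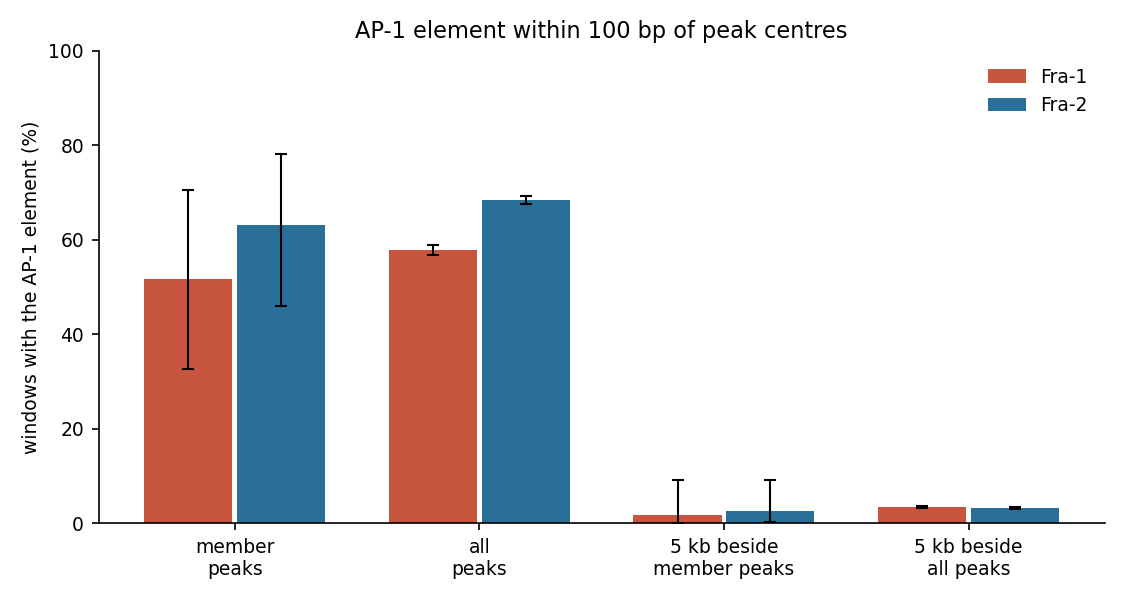
Share of windows of 201 bp with the AP-1 element (%), for Fra-1 (red) and Fra-2 (blue), at member peaks, all peaks, and 5 kb to each side of each. Bars are shares and error bars 95% exact binomial intervals, and the member peaks (51.7% and 63.2%) lie near all peaks (57.8% and 68.4%) and above the windows beside them.

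Only a small part of the element's copies lay in peaks, and the part differed among the genes. In the EGFR reach 7 of 72 copies (9.72%) lay in peaks, each in both lists. ERBB2 had 35 copies in reach and none in a peak. Of 191 copies at the long ERBB4 gene, Fra-1 peaks held 2 and Fra-2 peaks 1, and of 208 at NRG1 they held 2 and 3. Of 37 copies at HBEGF, Fra-1 peaks held 1 and Fra-2 peaks 5. For AREG the Fra-1 and Fra-2 shares were 7.5% and 10%, for EREG 5.66% and 7.55%, and for BTC 7.69% and 11.5%. They were 2.38% in each list for TGFA, and 0% and 5.88% for ERBB3. Over the merged reach 18 of 708 copies (2.54%) lay in Fra-1 and 26 (3.67%) in Fra-2 peaks, where the whole of chromosomes 1 to 22 and X gave 1.6% and 2.32%. At EGFR, 4 copies lay within 1 kb of an annotated TSS and none of them was in a peak. All 4 were near starts inside the gene, 90.6 to 180 kb from its 5′ end. The copies nearest to the canonical TSS were 23 kb upstream and 13.8 kb downstream of it, in no peak.

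The bases beside the element were compared between copies inside and outside peaks. An A before it or a T after it, on the plus strand, stood beside 14 of 28 copies in member peaks (50%, exact interval 30.6 to 69.4). Among the 680 copies in reach that lay in no peak, the share was 41.9% (38.2 to 45.7). These intervals overlap.

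Other short motifs were searched for on both strands in the same windows. The TEAD core GGAATG lay in 8 of 29 Fra-1 windows (27.6%) and 10 of 38 Fra-2 windows (26.3%), and in 26.2% and 22.7% over all peaks. Outside repeat-like regions the shares over all peaks were 23.5% and 20.4%. Beside the member peaks, 11 of 58 and 13 of 76 windows held GGAATG. The RUNX form TGTGGTT lay in 3 and 4 windows, where all peaks gave 7.1% and 6.4%. The forkhead form TGTTTAC lay in 1 window of each list, where all peaks gave 5.18% and 4.44%. The E-box CAGGTG, read by ZEB and SNAIL repressors, lay in 0 of 29 Fra-1 windows (exact interval up to 11.9%) and 0 of 38 Fra-2 windows (up to 9.25%). Over all peaks it was in 11.4% and 12%, and in 8 of 58 and 8 of 76 windows beside the member peaks. Outside repeat-like regions the shares over all peaks were 12.3% and 12.6%. CAGGTG was 1 of several motifs searched, and many windows of both lists cover the same sites, so the counts are not independent. The cyclic AMP element TGACGTCA was in none, as in nearly all peaks (0.204% and 0.398%).

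Among 20 other genes of the pathway, 12 had a Fra-1 and 12 a Fra-2 peak, shares to be read against 45.3% and 58.6% of all protein-coding genes. The inhibitors had the highest medians of the 4 groups, with a peak at 5 of 6 genes for each factor and a median of 3 Fra-1 and 3.5 Fra-2 peaks. ERRFI1, which binds and blocks the EGFR kinase domain, had 7 Fra-1 and 8 Fra-2 peaks. PTPN1, a tyrosine phosphatase, had 6 and 10, and CBLB, a ubiquitin ligase for activated receptors, had 5 of each. The other inhibitors had few or none. CBL had 1 Fra-1 and 2 Fra-2 peaks, LRIG3 had 1 of each, and LRIG1 had none.

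Of the 4 shedding genes, 3 had a Fra-1 and 3 a Fra-2 peak, among them ADAM17, the main protease for several EGFR ligands, with 2 and 3. RHBDF2, a partner of ADAM17, had 1 Fra-1 and 5 Fra-2 peaks. Of the 5 adaptor and signalling genes, only SHC1 had a peak, 1 in each list. Of the 5 remaining ligands, EGF and NRG4 had none, EPGN had the 2 Fra-1 and 3 Fra-2 peaks it shares with EREG and AREG, and NRG2 and NRG3 had 1 of each.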

How the data were processed

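Per the labels' protocols, Fra-1, Fra-2 and input libraries were sequenced on an Illumina instrument. Bowtie2 and hg19 are named, per the submitters' processing notes. How peaks were called and filtered, and whether replicates were pooled or input subtracted first, is not given in the sources used here. Each deposited list gives peak starts and ends on a grid of 50 bp, without counts or scores, so read depth is unknown. All starts lie 1 above a multiple of 50 and were read as 1-based. No nuclear peak passes its chromosome's end in GRCh37.

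The members and lists were chosen with earlier results of these data known. Peaks were placed by their centres with GENCODE 44 lifted to GRCh37, using Python 3.11.15, numpy 2.4.6, scipy 1.17.1, pysam 0.24.0, samtools 1.23.1 and matplotlib 3.10.9. Distances from the canonical TSS used the canonical transcript of GENCODE. Comparisons with all peaks or genes left out chromosomes Y and M. A repeat-like peak had over 20% recurring 10-base words within 1000 bp of its centre or lay less than 1 Mb from a stretch of 1 Mb or more without assembled sequence. Overlap, motif and reach counts were tested on simulated data and recovered what was planted.

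The sequence and position of 1 peak are not reported here. The peaks chosen for naming were, for each member, the pair nearest to a TSS, the widest pair and up to 3 widest peaks in 1 list only. Not all of these are given with positions, among them some at NRG1 and HBEGF. Peaks without a partner or element were added after their values had been seen. Other pathway genes were named when they shared a peak with a member or had at least the member median of peaks, and the further ones were named after their values had been seen. Alternatives were other reaches, TSS sets, widths, merging, overlap rules and motif windows.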

Additional observations from a re-analysis of the deposited data

How the results depend on the processing

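Of 120 recomputed counts, densities and shares over the family, 112 stayed within 1.5 times the reported count or within the counting interval of the reported share or density. Among peaks at least 200 bp wide, a limit that replaced the foreseen peak score, the members with a Fra-1 peak fell from 8 to 5 (28.3% of all protein-coding genes), Fra-1 peaks from 29 to 16 and Fra-2 peaks from 38 to 18. For Fra-2, 8 members kept a peak of that width, against 39.6% of protein-coding genes. The densities were then 3.61 and 4.06 per Mb, and 62.5% of Fra-1 peaks had a Fra-2 partner of that width. Of all peaks, 43.3% in the Fra-1 and 45.7% in the Fra-2 list were that wide. The density of such peaks over all genes is not given here, so these densities have no matched background. Fewer peaks enter by construction. With a reach of the gene body or 10 kb from a TSS, 24 Fra-2 peaks were left. Without EGFR, 19 Fra-1 peaks were left. The settings without EGFR, without repeat-like peaks and with AREG and EREG as 1 locus were chosen after seeing the data. Leaving out repeat-like peaks could move no value, because no member peak was repeat-like. Taking AREG and EREG as 1 locus could move only the counts of members. The values that stayed thus include some that could not change. For single genes, 182 of 218 recomputed counts stayed within 1.5 times. Among the others, AREG had no Fra-1 peak of its own within 50 kb or by nearest TSS, NRG1 kept 1 peak for Fra-1 and 3 for Fra-2 when the gene body beyond 100 kb was left out, and EGFR had 5 Fra-2 peaks at least 200 bp wide. No paired analysis was possible because each antibody has 1 list and no result comes from a test.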
